A study of Mus musculus with 24 samples.

Results

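Expression of the nuclear factor kB (NF-kB) subunits and of their feedback inhibitors was followed in fibroblasts cultured from mouse embryos (MEFs), which are connective tissue cells. The 10 genes were chosen by symbol, as named members of the pathway, when earlier results of these data were known. They are the subunit genes Nfkb1, Nfkb2, Rel and Relb, the inhibitor of kB (IkB) genes Nfkbia, Nfkbib, Nfkbie and Nfkbiz, and the signal-terminating genes Tnfaip3 and Tnip1. The count files hold 45706 gene entries, of which 15221 had enough reads to be tested, and all 10 genes were among these, with 65 to 17391 reads per library.

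The study holds 24 RNA-seq libraries from 8 groups of 3. All groups were cells of male C57BL/6 embryos of day 13.5, without head and inner organs, grown for 7 days. Cells were either wild type for the glucocorticoid receptor (GR) or homozygous for the allele that the labels name GR Zn/Zn. Each genotype received ethanol vehicle for 16 h, 1 uM dexamethasone (Dex, a synthetic glucocorticoid) in ethanol for 16 h, vehicle with 100 ng/ul bacterial lipopolysaccharide (LPS) for 6 h, or Dex with LPS at the same doses and times. Both LPS groups of a genotype therefore also carried the ethanol of the vehicle or of Dex. The labels do not tie the 3 libraries of a group to separate embryos or cultures, so the p-values measure only the spread among libraries, which could be technical. The effect of genotype and that of the embryos used for each genotype cannot be told apart.

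NF-kB proteins are dimeric transcription factors that IkB proteins hold in the cytoplasm. LPS acts through Toll-like receptors on the IkB kinase complex, whose activity leads to the loss of IkB and to entry of the dimers into the nucleus. Among the genes then switched on are those of several subunits and of the proteins that end the signal, which makes the family a feedback loop. Fibroblasts respond to LPS directly, and glucocorticoids are known to dampen many NF-kB target genes through GR.

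Counted reads were 18.9 to 25.5 M per library in 21 libraries. They were 43.9 to 58.0 M in 3 deeper libraries with later library numbers, namely the wild-type replicate 3 with both agents, replicate 1 of GR Zn/Zn vehicle and replicate 2 of GR Zn/Zn with LPS. With both agents, Dex and LPS, replicate 1 of wild type and replicate 2 of GR Zn/Zn deviated from their groups by transcript length. These 5 are called the libraries that stand apart. The Dex label of wild-type libraries was checked with Fkbp5, a GR target, at 235 to 319 CPM (counts per 1000000 reads, scaled by the TMM method) in the 6 wild-type Dex libraries and 34.9 to 45.8 CPM in the other 18. The GR Zn/Zn Dex libraries are among these 18, so Fkbp5 does not check their Dex label. Il6, a cytokine gene, was at 9.54 to 59.3 CPM in the 12 LPS libraries and 0.482 to 2.75 CPM in the 12 others. Nr3c1, the gene of GR, was at 50.5 to 111 CPM in all 24 libraries, and a count per gene does not show the allele. The 10 fibroblast markers summed to 25734 to 34992 CPM. The 10 macrophage and leukocyte markers summed to 61.0 to 80.3 CPM in wild-type and 156 to 192 CPM in GR Zn/Zn libraries, with Cd3e at 0 in all 24 libraries. The 6 endothelium markers summed to 27.2 to 28.6 CPM in wild-type vehicle and 10.8 to 12.9 CPM in GR Zn/Zn vehicle. The 8 liver markers summed to at most 189 CPM in any library and varied within groups. Their sums were 1.07 to 189 CPM in wild type with Dex and LPS and 21.5 to 167 CPM in GR Zn/Zn vehicle.

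All 10 genes were expressed in vehicle, with means of 4.70 CPM (Nfkbie) to 73.7 CPM (Nfkb1) in wild type. Levels were also taken per kilobase of merged exon, the length of all annotated exons of a gene joined. Nfkb2 and Nfkbia were then the highest in wild-type vehicle, at 11.5 ± 0.249 and 11.5 ± 0.37 CPM per kb (SD, n = 3). These levels did not differ beyond their spread. Merged exons can be longer than the transcripts present, so the order of genes depends on this divisor. Nfkb1, with 12.1 kb of merged exon, was at 6.11 CPM per kb. Nfkb2 encodes the precursor of the p52 subunit of the alternative pathway, and Nfkbia encodes IkB alpha, the inhibitor that is degraded and remade fastest. Nfkbie, which encodes IkB epsilon, and Rel, which encodes the subunit c-Rel, were the lowest at 1.54 ± 0.18 and 1.75 ± 0.208 CPM per kb. With LPS, Nfkbia stood highest at 121 ± 0.345 CPM per kb, Nfkb2 was at 42.2 ± 1.16 CPM per kb and Rel was lowest at 2.82 ± 0.167 CPM per kb. Counts in bulk RNA cannot tell fewer cells with a transcript from less transcript per cell.

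**Figure D1:**
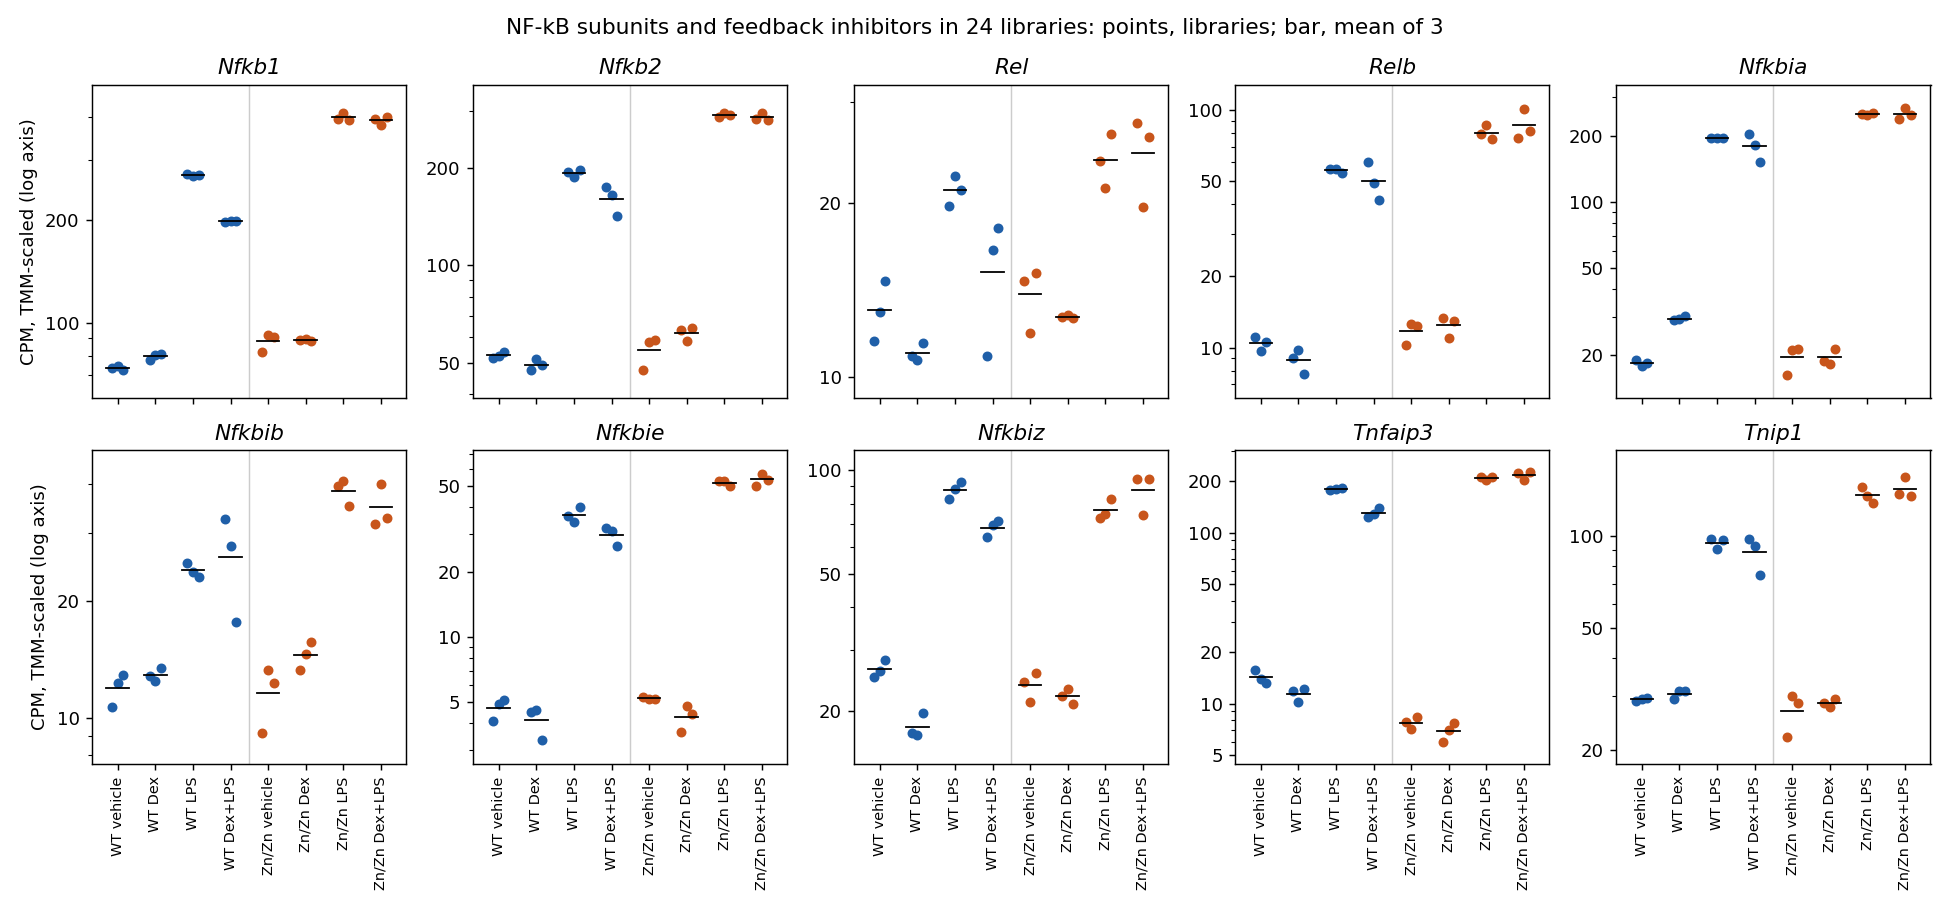
Level of each of the 10 genes in every library, in CPM on a log axis, by genotype (WT, wild type in blue, and GR Zn/Zn in orange) and treatment. Points are libraries in the order of replicates 1 to 3 and bars are means of 3. All 10 genes stand higher in the LPS libraries than in vehicle of the same genotype, and in wild type the libraries with Dex and LPS all lie below those with LPS for Nfkb1, Nfkb2, Rel, Nfkbie, Nfkbiz and Tnfaip3.

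Promoter windows were at hand for 7 of the 10 genes, from 250 bases before to 50 after the start site in RefSeq (GRCm38.p6). They are shown because all 7 genes rose with LPS, and NF-kB dimers bind decamers known as kB sites. A loose form of the site (GGG, any 5 bases, then CC) was searched on both strands, and matches may overlap. It occurred in the windows of 6 of the 7 genes (all but Nfkbib) and in 50.8% of all 32851 windows of 300 bases. A stricter form contained in it (GGGAA, any 3 bases, then CC) occurred in 5 of the 7 windows and in 5.78% of all windows. The start sites used for Nfkbib, Nfkb2 and Tnfaip3 lie 868, 417 and 247 bases inside the annotated genes. Those of the other genes lie at most 23 bases from the annotated 5′ end. The stretches below run 5′ to 3′ on the strand of the gene, with the bases covered by a match to the loose form in capitals. They are the 134 bases that end at position -2 from the start site, in no annotated exon, except for Nfkb2, where a stretch of 30 bases from -44 to -15 lies in an annotated exon.
Nfkbia (chr12:55492649-55492782, minus strand): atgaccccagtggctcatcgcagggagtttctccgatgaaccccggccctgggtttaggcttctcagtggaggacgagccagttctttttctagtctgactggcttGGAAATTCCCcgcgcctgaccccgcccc
Tnfaip3 (chr10:19015412-19015545, minus strand): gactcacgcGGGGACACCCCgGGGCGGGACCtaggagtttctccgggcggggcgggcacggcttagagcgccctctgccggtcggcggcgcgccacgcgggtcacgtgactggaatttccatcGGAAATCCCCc
Tnip1 (chr11:54962942-54963075, minus strand): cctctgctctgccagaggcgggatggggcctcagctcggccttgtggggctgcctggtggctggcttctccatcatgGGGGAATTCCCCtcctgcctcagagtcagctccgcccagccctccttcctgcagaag
Nfkbie (chr17:45555565-45555698, plus strand): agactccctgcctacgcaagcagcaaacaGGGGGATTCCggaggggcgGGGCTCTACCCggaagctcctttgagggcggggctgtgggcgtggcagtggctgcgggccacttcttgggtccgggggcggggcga
Rel (chr11:23770971-23771104, minus strand): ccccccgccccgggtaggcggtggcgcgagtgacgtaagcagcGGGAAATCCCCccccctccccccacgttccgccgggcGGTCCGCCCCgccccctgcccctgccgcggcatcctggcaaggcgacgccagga
Nfkb2 (chr19:46304693-46304722, plus strand): gtcacGGGAATTCCCCccctcggggggccg
The stretch of Nfkbia holds 1 match, GGAAATTCCC, at -29 to -20. Those of Tnip1 and Nfkb2 share the decamer GGGAATTCCC, at -57 to -48 and -39 to -30, which reads the same on both strands. For GR, the core ACANNNTGT of its element occurred in none of the 7 windows and in 6.85% of all windows, and the same core with G and C at its flanks (a G before the base that precedes it, a C after the base that follows it) in none of the 7 and in 0.475%. A match is a description of letters and no evidence of binding, and windows of 300 bases do not cover distant elements.

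LPS raised all 10 genes in wild-type cells, where 14% of all tested genes were called higher (adjusted p below 0.05, edgeR quasi-likelihood test with Benjamini-Hochberg adjustment over all tested genes). The libraries of vehicle and LPS did not overlap for any of the 10, as for 52.4% of all tested genes. Fold changes ran from 1.61 (Rel) to 12.5 (Tnfaip3), and the median log2 fold change was 1.88 against -0.01 over all tested genes. The inhibitors with the largest rises, Tnfaip3, Nfkbia and Nfkbie, exceeded every subunit gene in fold change. The other IkB and signal-terminating genes, Nfkbib (2.01-fold), Tnip1 (3.24-fold) and Nfkbiz (3.32-fold), rose less than Nfkb2 (3.66-fold), Nfkb1 (3.68-fold) and Relb (5.33-fold). Nfkbib, Tnip1 and Nfkbiz rose more than Rel.

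Among the subunits, Nfkb1 (ENSMUSG00000028163, on chromosome 3 from 135584655 to 135691547 in GRCm38/mm10, the build of every position given here), which encodes the precursor of p50, was at 73.6, 74.7 and 72.7 CPM in the 3 wild-type vehicle libraries and 273, 269 and 271 CPM with LPS. It rose 3.68-fold (log2 1.88 ± 0.04 SE, adjusted p = 3.06e-19). In GR Zn/Zn cells Nfkb1 was at 81.8, 91.7 and 90.7 CPM in vehicle and 396, 411 and 393 CPM with LPS, a 4.55-fold rise (log2 2.19 ± 0.04 SE, adjusted p = 1.55e-20). Every GR Zn/Zn library stood above every wild-type library of the same treatment. Nfkb2 (ENSMUSG00000025225, chromosome 19, 46304320 to 46312385) was at 51.8, 52.5 and 54 CPM in wild-type vehicle and 195, 187 and 198 CPM with LPS (3.66-fold, log2 1.87 ± 0.07 SE, adjusted p = 4.61e-15). Nfkb2 in GR Zn/Zn cells was at 47.3, 57.8 and 59 CPM in vehicle and 288, 297 and 292 CPM with LPS (5.36-fold, log2 2.42 ± 0.07 SE, adjusted p = 2.88e-17). Its vehicle libraries overlapped between genotypes, and its LPS libraries did not.

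Relb (ENSMUSG00000002983, chromosome 7, 19606217 to 19629438) encodes the subunit that pairs with p52 in the alternative pathway. Its libraries held 11.1, 9.65 and 10.5 CPM in wild-type vehicle and 56.6, 56.2 and 53.9 CPM with LPS (5.33-fold, log2 2.41 ± 0.13 SE, adjusted p = 2.1e-12). Those of GR Zn/Zn cells held 10.2, 12.6 and 12.3 CPM and 79.3, 85.9 and 75 CPM (6.94-fold, log2 2.79 ± 0.13 SE, adjusted p = 6.04e-14), so that the largest fold rise among the subunit genes was that of Relb in both genotypes. Rel (ENSMUSG00000020275, chromosome 11, 23736847 to 23770970), whose protein is best known from lymphocytes and macrophages, had the smallest fold rise of the family in both genotypes. Wild-type libraries of Rel were at 11.5, 13 and 14.6 CPM in vehicle and 19.8, 22.3 and 21.1 CPM with LPS (1.61-fold, log2 0.69 ± 0.15 SE, adjusted p = 0.00125). GR Zn/Zn libraries of Rel were at 14.7, 11.9 and 15.1 CPM and 23.6, 21.2 and 26.4 CPM (1.69-fold, log2 0.76 ± 0.14 SE, adjusted p = 0.000219). The LPS libraries of Rel overlapped between genotypes.

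Nfkbia (ENSMUSG00000021025, chromosome 12, 55489410 to 55492647), whose promoter stretch is printed above, was at 19.1, 17.9 and 18.6 CPM in wild-type vehicle and 195, 194 and 195 CPM with LPS (10.5-fold, log2 3.39 ± 0.10 SE, adjusted p = 1.86e-17). GR Zn/Zn libraries of Nfkbia held 16.3, 21.2 and 21.4 CPM in vehicle and 251, 248 and 252 CPM with LPS (12.9-fold, log2 3.69 ± 0.10 SE, adjusted p = 2.44e-18). The 3 LPS libraries of each genotype lay close together, and those of GR Zn/Zn were all above those of wild type. Nfkbie (ENSMUSG00000023947, chromosome 17, 45555703 to 45563169) was at 4.08, 4.89 and 5.13 CPM in wild-type vehicle and 36.4, 34 and 40 CPM with LPS (7.78-fold, log2 2.96 ± 0.11 SE, adjusted p = 1.1e-15). With GR Zn/Zn it went from 5.3, 5.19 and 5.19 CPM to 52.4, 52.6 and 50.1 CPM (9.87-fold, log2 3.30 ± 0.10 SE, adjusted p = 3.9e-17). Its LPS libraries did not overlap between genotypes.

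Nfkbib (ENSMUSG00000030595, chromosome 7, 28758251 to 28767512) encodes IkB beta, the slower turning inhibitor. Its libraries were at 10.6, 12.3 and 12.9 CPM in wild-type vehicle and 25.1, 23.8 and 23.1 CPM with LPS (2.01-fold, log2 1.00 ± 0.17 SE, adjusted p = 0.000117). With GR Zn/Zn, Nfkbib was at 9.13, 13.3 and 12.3 CPM and 39.6, 40.8 and 35.1 CPM (3.4-fold, log2 1.76 ± 0.17 SE, adjusted p = 2.16e-08). It was the IkB gene with the smallest fold rise in wild type. Nfkbiz (ENSMUSG00000035356, chromosome 16, 55811375 to 55838899) encodes IkB zeta, a nuclear IkB protein that acts as a cofactor at late genes such as Il6. Nfkbiz was at 25.1, 26.2 and 28 CPM in wild-type vehicle and 82.7, 88.1 and 92.4 CPM with LPS (3.32-fold, log2 1.73 ± 0.09 SE, adjusted p = 6.76e-13). GR Zn/Zn libraries of Nfkbiz were at 24.2, 21.1 and 25.7 CPM in vehicle and 72.8, 74.8 and 82.3 CPM with LPS (3.23-fold, log2 1.69 ± 0.09 SE, adjusted p = 5.82e-13), so its LPS libraries were all below those of wild type, by a narrow margin.

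Tnfaip3 (ENSMUSG00000019850, chromosome 10, 19000910 to 19015657) encodes A20, a ubiquitin-editing enzyme that shuts off signalling to the IkB kinase. It was at 15.8, 14 and 13.3 CPM in wild-type vehicle and 177, 179 and 182 CPM with LPS (12.5-fold, log2 3.64 ± 0.08 SE, adjusted p = 1.36e-19). GR Zn/Zn libraries of Tnfaip3 held 7.8, 7.09 and 8.36 CPM in vehicle and 212, 204 and 210.5 CPM with LPS (26.8-fold, log2 4.75 ± 0.09 SE, adjusted p = 3.96e-21). The gene thus started lower and ended higher in GR Zn/Zn, with no overlap between genotypes in either state. Tnip1 (ENSMUSG00000020400, chromosome 11, 54910785 to 54962917), which encodes the A20-binding protein ABIN1, was at 29, 29.4 and 29.6 CPM in wild-type vehicle and 97.6, 90.6 and 97 CPM with LPS (3.24-fold, log2 1.70 ± 0.10 SE, adjusted p = 4.44e-12). Its GR Zn/Zn libraries were at 22.1, 30 and 28.4 CPM in vehicle, where replicate 1 stood lowest, and 145, 135.2 and 129 CPM with LPS (5.12-fold, log2 2.36 ± 0.10 SE, adjusted p = 7.55e-15).

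**Figure D2:**
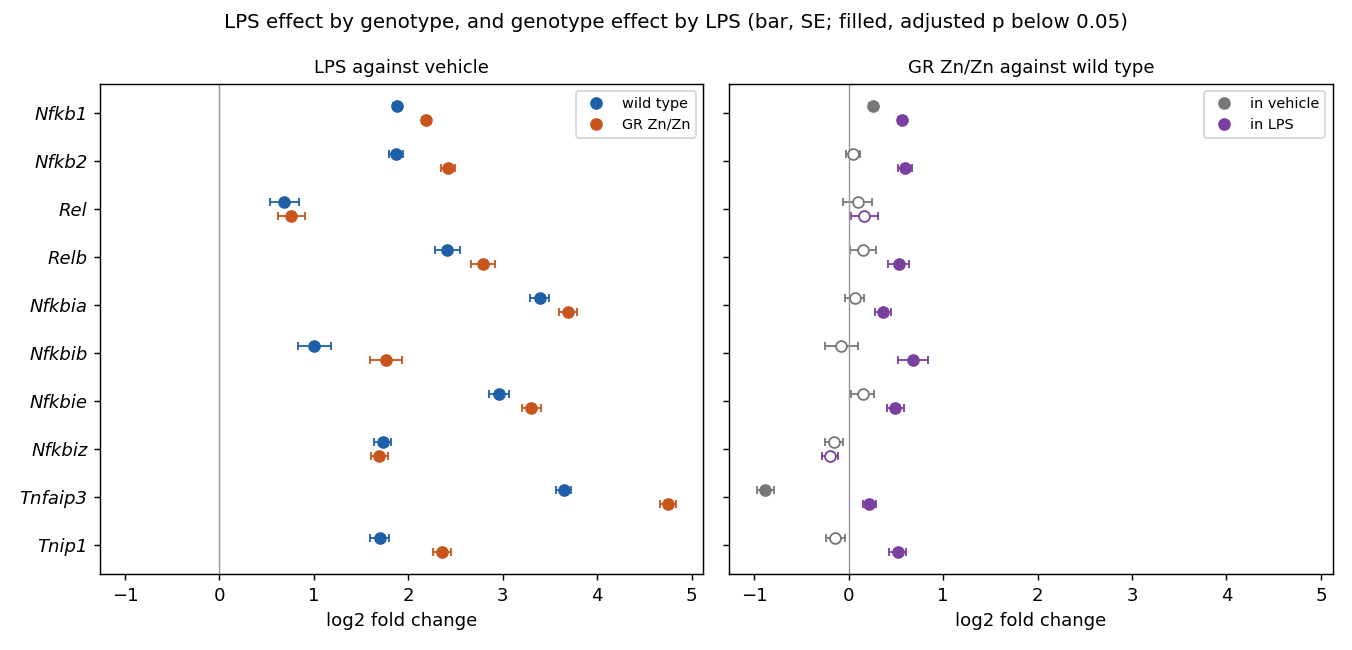
Left, log2 fold change with LPS against vehicle in wild type (blue) and GR Zn/Zn (orange). Right, log2 fold change of GR Zn/Zn against wild type in vehicle (grey) and with LPS (purple). Bars are SE, and filled points have an adjusted p below 0.05. Tnfaip3 has the largest LPS rise in both genotypes (log2 3.64 and 4.75) and is the only one of the 10 genes called lower in GR Zn/Zn vehicle (-0.88).

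All 10 genes likewise rose with LPS in GR Zn/Zn cells, beside 19% of all tested genes called higher, and their vehicle and LPS libraries did not overlap, as for 48.9% of all tested genes. The median log2 fold change was 2.39. The difference between genotypes in the LPS effect was tested as an interaction. It was called higher in GR Zn/Zn for 4 of the 10 genes and lower for none, beside 0.348% of all tested genes called higher and 0.191% called lower. These were Tnfaip3 (log2 1.10 ± 0.11 SE, adjusted p = 1.87e-05), Tnip1 (log2 0.66 ± 0.14 SE, adjusted p = 0.0231), Nfkb2 (log2 0.55 ± 0.10 SE, adjusted p = 0.0113) and Nfkb1 (log2 0.31 ± 0.06 SE, adjusted p = 0.0158). For Tnfaip3 the difference amounts to a fold change 2.15 times as large. Its level in GR Zn/Zn against wild type was at log2 -0.88 in vehicle and 0.22 with LPS, so most of the difference lay in vehicle. The interaction of Tnfaip3 kept its call when any of the libraries concerned was left out (log2 at least 1.01). Nfkb2 also kept its call, with a largest adjusted p of 0.0425 over all alternatives. The calls of Nfkb1 and Tnip1 were less stable. Tnip1 lost its call without any 1 of 6 libraries, with adjusted p of 0.0527 to 0.0756: each of the wild-type vehicle libraries, wild type with LPS replicate 2, GR Zn/Zn vehicle replicate 1 and GR Zn/Zn with LPS replicate 1. Nfkb1 lost its call without any 1 of 7 libraries, with adjusted p of 0.0511 to 0.0709: wild-type vehicle replicates 1 and 2, each wild-type LPS library, GR Zn/Zn vehicle replicate 1 and GR Zn/Zn with LPS replicate 2. It was also lost with no filter on low counts (adjusted p = 0.125) and without the 3 deeper libraries (adjusted p = 0.0839). For Nfkbib the difference had a wider error and was not called (log2 0.76 ± 0.24 SE, adjusted p = 0.252, 95% interval 0.29 to 1.23), except without the 5 libraries that stand apart (log2 0.54, adjusted p = 0.00299) and with only the compared groups fitted (log2 0.76, adjusted p = 0.0436). Relb (log2 0.38 ± 0.18 SE, adjusted p = 0.555, 95% interval 0.03 to 0.73), Nfkbia (log2 0.30 ± 0.13 SE, adjusted p = 0.52, 95% interval 0.04 to 0.56) and Nfkbie (log2 0.34 ± 0.15 SE, adjusted p = 0.516, 95% interval 0.04 to 0.64) were not called either. The intervals of Rel and Nfkbiz were -0.33 to 0.48 and -0.29 to 0.20. At an unadjusted p below 0.05 there were 8 of the 10 genes and 1337 of all 15221 tested genes.

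Compared directly, the genotypes differed for 2 of the 10 genes in vehicle and for 8 with LPS. In vehicle 1 gene was called higher and 1 lower in GR Zn/Zn, beside 8.69% and 10.1% of all tested genes, and the libraries of 3 genes did not overlap, as for 36.7% of all. Nfkb1 was 1.19-fold higher (log2 0.25 ± 0.04 SE, adjusted p = 0.000136), and Tnfaip3 was lower, at 7.75 ± 0.635 against 14.4 ± 1.31 CPM (SD, n = 3, log2 -0.88 ± 0.09 SE, adjusted p = 1.33e-07). With LPS, 8 of the 10 genes were called higher in GR Zn/Zn and none lower, beside 12.6% and 11.9% of all tested genes, and the libraries of 9 did not overlap, as for 48.8% of all. The 8 log2 differences ran from 0.22 (Tnfaip3) to 0.68 (Nfkbib). The largest of them in fold was Nfkbib at 1.61 (log2 0.68 ± 0.16 SE, adjusted p = 0.00284), followed by Nfkb2 at 1.51 and Nfkb1 at 1.48. Rel (log2 0.17 ± 0.14 SE, adjusted p = 0.432) and Nfkbiz (log2 -0.20 ± 0.08 SE, adjusted p = 0.0993) were not called, and Nfkbiz is the only one of the 10 with a lower value in GR Zn/Zn. Without the 5 libraries that stand apart both were called (Rel log2 0.24, adjusted p = 0.0170, and Nfkbiz log2 -0.19, adjusted p = 0.0130). In vehicle 5 genes were then called, with Nfkb2 (log2 0.15, adjusted p = 0.00739), Relb (log2 0.26, adjusted p = 0.0311) and Nfkbia (log2 0.20, adjusted p = 0.00917) added, each of which had its lowest GR Zn/Zn value in vehicle replicate 1, one of the libraries left out. The call of Tnfaip3 with LPS (log2 0.22 ± 0.07 SE, adjusted p = 0.0246) was lost without any 1 of the 6 libraries compared, with adjusted p of 0.054 to 0.0997. Nfkbiz with LPS was called lower in GR Zn/Zn with only the compared groups in the edgeR fit (log2 -0.21, adjusted p = 0.00616). In the same contrasts 8 of the 8 tested macrophage and leukocyte markers were higher in GR Zn/Zn, in vehicle (median log2 0.94) and with LPS (median log2 1.08). Of the 10 fibroblast markers 6 were higher and 1 lower in vehicle and 8 higher and 1 lower with LPS. The 4 tested endothelium markers held 2 lower and none higher in each contrast. Of the 3 tested epithelium markers 2 were lower in vehicle (median log2 -1.60), and 2 lower and 1 higher with LPS (median log2 -1.77). The 6 epithelium markers summed to 14.1 to 16.5 CPM in wild-type and 4.01 to 4.28 CPM in GR Zn/Zn vehicle. The part of these markers in the genotype differences was not tested.

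With Dex and no LPS, 3 of the 10 genes were called in wild-type cells and none in GR Zn/Zn cells. In wild-type cells Dex raised 1 of the 10 genes and lowered 2, beside 7.92% of all tested genes called higher and 5.24% lower, and the libraries of 6 did not overlap with vehicle, as for 40.9% of all. Nfkbia was at 28.9, 29.2 and 30.1 CPM with Dex, all above the vehicle libraries given above, and rose 1.59-fold (log2 0.67 ± 0.10 SE, adjusted p = 3.94e-05). Nfkbiz was at 17.2, 17 and 19.7 CPM, all below its vehicle libraries, and fell 1.47-fold (log2 -0.56 ± 0.09 SE, adjusted p = 0.000171). Tnfaip3 was at 11.9, 10.3 and 12.1 CPM, also all below vehicle, and fell 1.26-fold (log2 -0.33 ± 0.09 SE, adjusted p = 0.0127). The call of Tnfaip3 was lost without wild-type vehicle replicate 1 (adjusted p = 0.106) or wild-type Dex replicate 2 (adjusted p = 0.103). Nfkb1 was at 77.5, 80.6 and 81 CPM, above all vehicle libraries but short of a call (log2 0.11 ± 0.04 SE, adjusted p = 0.103). The remaining 6 genes had log2 values from -0.25 (Rel) to 0.10 (Nfkbib) and were not called. Without the 5 libraries that stand apart, none of which is in this contrast, 6 genes were called, the further ones being Nfkb1 (log2 0.11, adjusted p = 0.00812), Rel (log2 -0.26, adjusted p = 0.0205) and Relb (log2 -0.23, adjusted p = 0.0444). In this contrast 3 of the 8 tested macrophage and leukocyte markers were lower and none higher (median log2 -0.31). Of the 3 tested epithelium markers 2 were lower, and of the 10 fibroblast markers 3 were lower and 1 higher. The part of these markers in the Dex changes was not tested.

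In GR Zn/Zn cells none of the 10 genes was called with Dex by the same test, and 0% of all tested genes were called. Log2 values ran from -0.29 (Nfkbie) to 0.35 ± 0.17 SE (Nfkbib, adjusted p = 0.675), so changes of that size are not excluded. At an unadjusted p below 0.05 there were 2 of the 10 genes (Nfkb2 and Nfkbie) and 1109 genes in all. DESeq2 called 3 genes in all and none of the 10. Nfkbia was at 18.9, 18.4 and 21.5 CPM with Dex, overlapping its vehicle libraries (log2 0.01 ± 0.10 SE, adjusted p = 0.977, 95% interval -0.18 to 0.21). Nfkbie was the only one of the 10 whose Dex libraries, at 3.63, 4.81 and 4.42 CPM, did not overlap with vehicle (log2 -0.29 ± 0.12 SE, adjusted p = 0.675), as for 13.4% of all tested genes. The genotype difference of the Dex effect was called for Nfkbia (log2 -0.65 ± 0.14 SE, adjusted p = 0.00439), where the wild-type rise was larger, and for Nfkbiz (log2 0.45 ± 0.13 SE, adjusted p = 0.04), beside 6.99% of all tested genes called (4.4% lower and 2.6% higher). Nfkbiz lost that call without any 1 of 8 libraries, with adjusted p of 0.0553 to 0.115: wild-type vehicle replicates 2 and 3, wild-type Dex replicates 1 and 2, GR Zn/Zn vehicle replicates 1 and 2 and GR Zn/Zn Dex replicates 1 and 2. Without the 3 deeper libraries its adjusted p was 0.0583. For Tnfaip3 the difference was not called (log2 0.16 ± 0.13 SE, adjusted p = 0.657, 95% interval -0.10 to 0.42), so its fall in wild type is not shown to differ from the value in GR Zn/Zn. Without the 5 libraries that stand apart, of which GR Zn/Zn vehicle replicate 1 enters this contrast, 4 genes were called, with Nfkb1 (log2 -0.14, adjusted p = 0.0369) and Nfkb2 (log2 0.19, adjusted p = 0.0255) added.

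**Figure D3:**
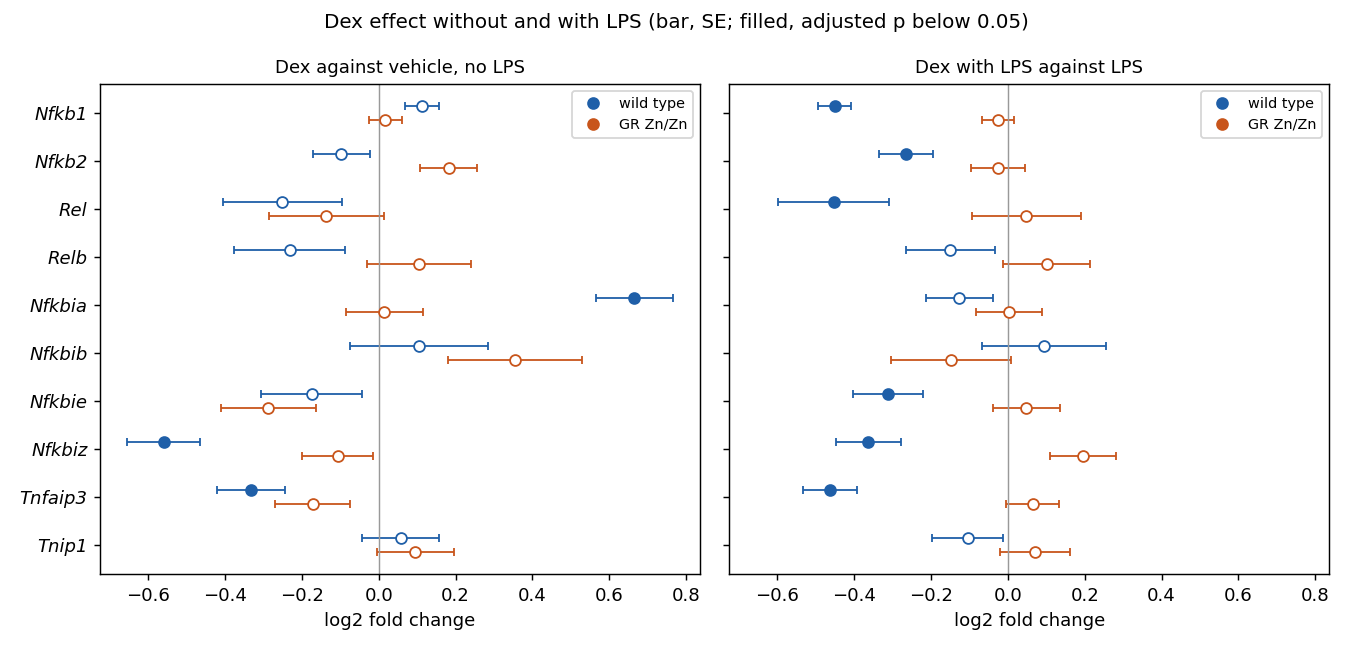
Log2 fold change with Dex, without LPS (left) and in the presence of LPS (right), in wild type (blue) and GR Zn/Zn (orange). Bars are SE, and filled points have an adjusted p below 0.05. Nfkbia is filled on the left at 0.67 and open on the right at -0.13, while Nfkb1 is open on the left at 0.11 and filled on the right at -0.45; no GR Zn/Zn point is filled.

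In the presence of LPS, Dex lowered 6 of the 10 genes in wild-type cells and raised none, beside 10.6% of all tested genes called lower and 10.5% higher. The libraries of these 6 did not overlap between LPS and Dex with LPS, as for 32% of all tested genes. The median log2 fold change of the 10 genes was -0.29 against 0.01 over all tested genes. Nfkb1 was at 197, 199 and 199 CPM with Dex and LPS, close together and all below the LPS libraries given above, and fell 1.37-fold (log2 -0.45 ± 0.04 SE, adjusted p = 2.83e-08). Tnfaip3 was at 123, 128 and 139.6 CPM, all below LPS, and fell 1.38-fold (log2 -0.46 ± 0.07 SE, adjusted p = 2.79e-05). Nfkbiz was at 63.9, 69.2 and 71.2 CPM, again all below LPS, and fell 1.29-fold (log2 -0.36 ± 0.08 SE, adjusted p = 0.00307). These 3 kept their calls under every alternative tried, with log2 values of -0.47 to -0.43 for Nfkb1, -0.52 to -0.42 for Tnfaip3 and -0.42 to -0.32 for Nfkbiz.

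Nfkb2 was at 175, 166 and 143 CPM with Dex and LPS in wild type and fell 1.2-fold (log2 -0.27 ± 0.07 SE, adjusted p = 0.00862). Nfkbie was at 31.8, 31 and 26.4 CPM and fell 1.24-fold (log2 -0.31 ± 0.09 SE, adjusted p = 0.0153). Rel was at 10.9, 16.6 and 18.1 CPM and fell 1.37-fold (log2 -0.45 ± 0.14 SE, adjusted p = 0.0286). The Dex with LPS replicates spread widely, with replicate 3 lowest for Nfkb2 and Nfkbie and replicate 1 lowest for Rel. The call of Rel was lost without wild type with LPS replicate 2 or 3 or Dex with LPS replicate 1 (adjusted p = 0.101, 0.0637 and 0.133), and its log2 without the last of these was -0.27. With no filter on low counts its adjusted p was 0.0797. That of Nfkbie was lost without wild type with LPS replicate 3 or Dex with LPS replicate 3 (adjusted p = 0.0748 and 0.0643), the latter at log2 -0.23, and without the 3 deeper libraries (log2 -0.23, adjusted p = 0.0585). With only the compared groups in the fit the adjusted p of Nfkb2, Rel and Nfkbie were 0.115, 0.158 and 0.118. The other 4 genes were not called, and their libraries overlapped with LPS. Relb was at 60.1, 49.1 and 41.7 CPM (log2 95% interval -0.38 to 0.08). Nfkbia was at 203, 181 and 151 CPM (log2 95% interval -0.30 to 0.04). Tnip1 was at 97.9, 93 and 74.9 CPM (log2 95% interval -0.29 to 0.08). In these 3, as in Nfkbib, replicate 1 was highest and replicate 3 lowest. Nfkbib was at 32.6, 27.7 and 17.7 CPM (log2 95% interval -0.22 to 0.41). Nfkbib was called higher (log2 0.33, adjusted p = 0.0160) without the 3 deeper libraries.

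The spread within wild type with Dex and LPS followed exon length. Over 15173 tested genes with an annotated length, the rank correlation of a library's deviation from the group mean with exon length was -0.48, 0.24 and 0.34 for replicates 1, 2 and 3 (a description across genes, which are not independent), against -0.22 to 0.20 in the groups outside Dex with LPS. The 6 genes of the family with 4.58 kb of exon or less, Nfkbia, Nfkbib, Nfkbie, Tnip1, Relb and Nfkb2, were higher in replicate 1 than in replicate 3, by 0.26 (Nfkbie) to 0.88 (Nfkbib) on the log2 scale. For the longer genes Nfkbiz, Tnfaip3 and Rel, replicate 1 minus replicate 3 was -0.16, -0.19 and -0.73. Nfkb1, the longest by merged exon at 12.1 kb, differed by -0.01. Without the 5 libraries that stand apart, which leaves replicate 2 alone for this group and assumes that it varies like the other groups, the log2 value was -0.46 for Nfkb1, -0.51 for Tnfaip3, -0.36 for Nfkbiz, -0.24 for Nfkb2, -0.36 for Rel and -0.26 for Nfkbie, all still called, and Relb (-0.20, adjusted p = 0.0378) and Nfkbia (-0.12, adjusted p = 0.0375) were called lower as well. The part of transcript length in the values of the other genes was not tested.

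**Figure D4:**
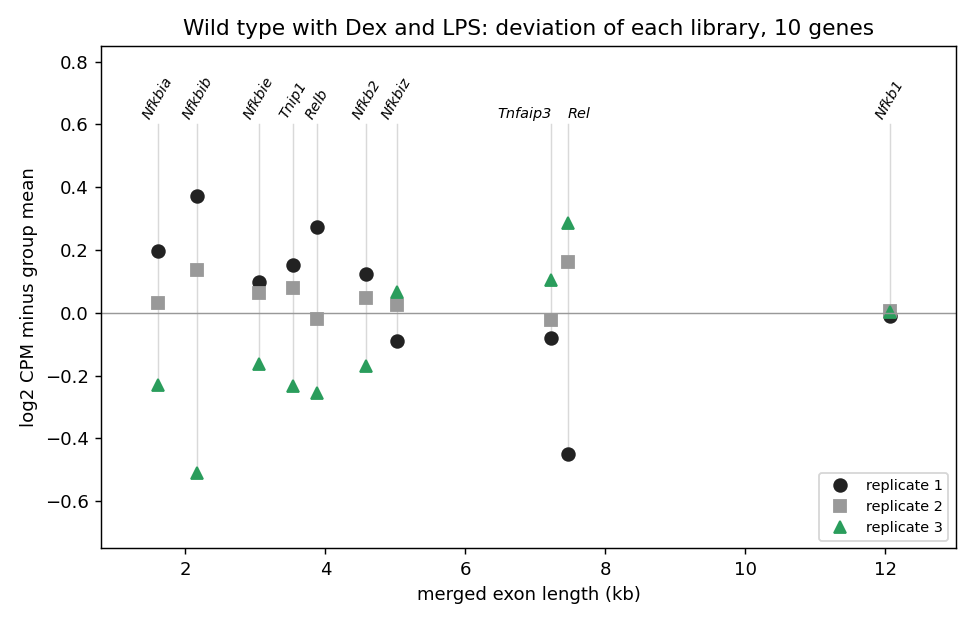
Deviation of each wild-type library with Dex and LPS from the mean of its group (log2 CPM, vertical axis) against the merged exon length of the gene in kb (horizontal axis), for the 10 genes. Black circles, grey squares and green triangles are replicates 1, 2 and 3. Nfkbib spans the widest range, 0.88 between replicates 1 and 3, and the points of Nfkb1 coincide near 0.

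Between LPS and Dex with LPS in GR Zn/Zn cells none of the 10 genes was called by the edgeR test, and 0.00657% of all tested genes (1 gene) were called. At an unadjusted p below 0.05 there were 1 of the 10 genes (Nfkbiz) and 889 genes in all, and DESeq2 called 28 genes in all and none of the 10. The libraries of all 10 genes overlapped between the groups, while 10.2% of all tested genes did not. Nfkb1 was at 396, 380.1 and 402 CPM with Dex and LPS. Tnfaip3 was at 224, 203 and 227 CPM. Nfkbiz was at 94.2, 74.3 and 94.5 CPM. In each of these 3 genes replicate 2 was the lowest, the library whose deviation from the group had a rank correlation of -0.49 with exon length, against 0.39 and 0.34 for replicates 1 and 3. Log2 values ran from -0.15 (Nfkbib) to 0.20 (Nfkbiz). Nfkbiz was called higher (log2 0.30, adjusted p = 0.0099) without the 5 libraries that stand apart, where GR Zn/Zn with Dex and LPS lacks replicate 2, the lowest of its 3 values. The genotype difference of the Dex effect under LPS was called for Nfkb1 (log2 0.42 ± 0.06 SE, adjusted p = 1.88e-05), Nfkbiz (log2 0.56 ± 0.12 SE, adjusted p = 0.00263) and Tnfaip3 (log2 0.53 ± 0.10 SE, adjusted p = 0.00065), all higher in GR Zn/Zn, beside 10.4% of all tested genes called (5.36% higher and 5.03% lower). For Rel (log2 0.50 ± 0.20 SE, adjusted p = 0.137) and Nfkbie (log2 0.36 ± 0.13 SE, adjusted p = 0.0764) it was not called. Both became called without 1 library of the groups with Dex and LPS or LPS: Rel without replicate 3 of that wild-type group (adjusted p = 0.0308) or replicate 2 of the GR Zn/Zn group (adjusted p = 0.035), and Nfkbie without wild-type LPS replicate 2 (adjusted p = 0.0415) or without replicate 1 of either group with both agents (adjusted p = 0.0334 for wild type and 0.0470 for GR Zn/Zn). The same held for Nfkb2 without replicate 1 of wild type with both agents (adjusted p = 0.0447). DESeq2 called Nfkbie as well (adjusted p = 0.035). Nfkbib, not called here (log2 -0.24 ± 0.23 SE, adjusted p = 0.613), was called lower in GR Zn/Zn without the 5 libraries that stand apart (log2 -0.40, adjusted p = 0.0116) and without the 3 deeper libraries (log2 -0.43, adjusted p = 0.0479).

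Whether LPS changed the Dex effect in wild type was tested as an interaction of both agents. It was called lower for Nfkb1 (log2 -0.56 ± 0.06 SE, adjusted p = 8.03e-06) and Nfkbia (log2 -0.79 ± 0.13 SE, adjusted p = 0.00139) and higher for no gene of the family, beside 1.56% of all tested genes called (1.25% lower and 0.315% higher). Both calls held under every alternative. Nfkbia thus stood 1.59-fold higher with Dex alone, while under LPS its value with Dex (179 ± 26.2 CPM, SD, n = 3) was not called different from that without (195 ± 0.555 CPM), except in the fit without the 5 libraries given above. The interaction of Nfkbiz had a 95% interval of -0.05 to 0.45 and that of Tnfaip3 of -0.35 to 0.09, so their falls without and with LPS were not shown to differ. Nfkb2, Rel, Relb, Nfkbib, Nfkbie and Tnip1 were not called, with log2 values from -0.20 (Rel) to 0.08 (Relb).

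Ordered by mean level over the 8 groups, Nfkb1, Nfkb2, Rel, Relb, Nfkbia, Nfkbie, Tnfaip3 and Tnip1 had the same groups at the top: both GR Zn/Zn groups with LPS, then wild type with LPS, then wild type with Dex and LPS. Both GR Zn/Zn groups overlapped in all 8 genes, and for Rel they also overlapped with wild type with LPS. Wild type with LPS overlapped with wild type with Dex and LPS for Relb, Nfkbia and Tnip1 and not for Nfkb1, Nfkb2, Rel, Nfkbie and Tnfaip3. For Rel, wild type with Dex and LPS (15.2 CPM) overlapped with the next group, GR Zn/Zn vehicle (13.9 CPM). For Nfkbib the 4 groups with LPS overlapped from one to the next, with wild type with LPS lowest. For Nfkbiz wild type with LPS held the highest mean, 87.7 CPM, overlapping with GR Zn/Zn with Dex and LPS at 87.6 CPM. At the bottom of the order stood GR Zn/Zn with Dex for Tnfaip3 (6.89 CPM) and wild type with Dex for Nfkb2, Rel, Relb, Nfkbie and Nfkbiz. This lowest group overlapped with the next lowest for Tnfaip3, Relb and Nfkbie and not for Nfkb2, Rel and Nfkbiz.

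The patterns over the 8 groups were compared as the root mean square difference of group means in log2 CPM after each gene was centred on its own mean. Within the family Nfkb1 and Nfkb2 were the closest pair at 0.12, and Rel and Tnfaip3 the farthest at 1.79. Outside the family the nearest tested gene was Csf1, a macrophage growth factor gene, for Nfkb1 (0.09) and Birc3, an inhibitor of apoptosis, for Nfkb2 (0.10). Bcl3, the gene of another nuclear IkB protein, was nearest to Relb (0.16), and Gch1, which encodes the first enzyme of tetrahydrobiopterin synthesis, to Nfkbia (0.14). Malt1, a paracaspase gene of NF-kB signalling, was nearest to Rel (0.06), a gene whose small range left 9250 tested genes within 0.5 of it. For Tnfaip3, with the widest range of 4.98, the nearest gene was the adhesion molecule gene Icam1 at 0.31, and 11 genes lay within 0.5. Bcl2a1a was nearest to Nfkbie (0.14), Rrad to Nfkbib (0.13), Gm16098 to Nfkbiz (0.14) and Rffl to Tnip1 (0.12). Within 0.5 lay 1045 tested genes for Nfkbib, 267 for Nfkb1, 221 for Nfkbiz, 211 for Nfkb2 and 210 for Tnip1. For Relb, Nfkbie and Nfkbia the counts were 102, 63 and 29. The next nearest were Cyp7b1 and Tapbp for Nfkb1, Csf1 and Cyp7b1 for Nfkb2, Rab8b and St3gal1 for Rel, Pik3r5 and Ereg for Relb, and Casp4 and Arg2 for Nfkbia. For the rest they were Nod1 and Junb (Nfkbib), Madcam1 and Rnd1 (Nfkbie), Micall2 and Gm26902 (Nfkbiz), Pdgfb and Marco (Tnfaip3), and Tmem132e and Stx11 (Tnip1). Bcl2a1a has close copies in the genome, so its counts are uncertain.

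Other genes of the pathway were described by lists. Of 23 kinases and adaptors that lead to NF-kB, 11 rose with LPS in wild type and none fell, with a median log2 fold change of 0.20. Of all tested genes 14% were called higher and 12.4% lower in that comparison, the background for each list. Rela, the gene of the main partner of p50, rose from 71.2 ± 3.3 to 113 ± 2.52 CPM (SD, n = 3, log2 0.67 ± 0.08 SE, adjusted p = 9.36e-07). The largest rises in this list were those of Traf1 (9.98-fold, log2 3.32 ± 0.14 SE, adjusted p = 1.64e-14), Ripk2 (6.16-fold), Ikbke (3.08-fold) and Myd88 (1.79-fold). Of 4 genes loosely listed as other IkB-type regulators 3 rose, Bcl3 6.38-fold, Nfkbid 2.34-fold and Ankrd1 1.16-fold. Of 15 genes on a loosely drawn list for ubiquitin editing and linear ubiquitin 6 rose and none fell. They were led by Usp18 (44.1-fold), Tnip3 (25.8-fold), Zc3h12a (12.7-fold) and Birc3 (4.16-fold). All 26 target genes outside the family rose, with a median log2 of 4.31 that was the same with Il1b at its bound. The 4 largest, Il1b, Nos2, Cxcl2 and Saa3, had at most 2 reads in any wild-type vehicle library and 36.4, 46.7, 53.3 and 25.1 CPM on average with LPS. Il1b, at 0 in all 3 vehicle libraries, was at least 827-fold higher, taking 3 reads over the vehicle group. In GR Zn/Zn cells 11 of 23 kinases and adaptors, 3 of 4 genes on the IkB-type list, 7 of 15 on the ubiquitin list and 26 of 26 targets rose. None fell, beside 19% of all tested genes called higher and 17.7% lower.

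The same lists were read for Dex under LPS in wild type, where 10.6% of all tested genes were called lower and 10.5% higher. Of the 26 targets 19 fell and 3 rose, with a median log2 of -0.76, beside -0.29 for the 10 genes and 0.01 over all tested genes. Csf2 (log2 -3.01 ± 0.22 SE), Il1b (-2.62 ± 0.12 SE) and Il6 (-2.17 ± 0.10 SE) fell, and Lcn2, the gene of an iron-binding lipocalin, rose (2.96 ± 0.17 SE). Of the 23 kinases and adaptors 7 fell and 1 rose. Traf1 (-0.78 ± 0.11 SE), Ripk2 (-0.69 ± 0.05 SE) and Traf3 (-0.39 ± 0.08 SE) fell, Irak3, a brake on Toll-like receptor signalling, rose (0.85 ± 0.10 SE), and Rela was not called (log2 -0.05 ± 0.08 SE, adjusted p = 0.704). Of the 15 genes on the ubiquitin list 6 fell and 1 rose. Usp18, also an interferon target, was at -2.60 ± 0.13 SE, Tnip3 at -0.83 ± 0.19 SE, Rnf31 at -0.30 ± 0.08 SE and Birc2 at 0.45 ± 0.08 SE. Of the 4 genes on the IkB-type list Ankrd1 fell (-0.17 ± 0.05 SE) and none rose. None of the genes of these 4 lists was called in GR Zn/Zn cells with Dex under LPS, where the single gene called lay outside them.

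The authors' deposited table gives its own log2 fold change and adjusted p for 4 of these comparisons, Dex without and with LPS in each genotype. Its calls at an adjusted p below 0.05 were the same as here for all 10 genes in all 4 comparisons. In the authors' deposited table the counts of genes called were 1888, 3, 3059 and 28 of 12588, in the order of Dex in wild type, Dex in GR Zn/Zn, Dex under LPS in wild type and Dex under LPS in GR Zn/Zn.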

How the data were processed

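Polyadenylated RNA was sequenced from 24 libraries with a stranded kit, per the labels' protocols. Reads were aligned to mm10 with STAR 2.4.2 or 2.4.2a, per the submitters' processing notes, which also name FastQC, DESeq and DESeq2. The deposited files give raw counts per gene from STAR, and the column matching the kit's strand was used. In these counts at most 2.16% of the reads of any of the 10 genes fell on the other strand. Tables deposited by the authors hold a signal per library (unstranded counts divided by 1 factor), log2 fold changes, and p-values with their adjusted form, used only for the last comparison of the report. Some 72 further columns of per-sample values were not used.

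Counts were tested with edgeR 4.0.16 (TMM scaling, quasi-likelihood test, all 8 groups in 1 fit, genes kept by filterByExpr), with Benjamini-Hochberg adjustment over 15221 genes and a threshold of 0.05. R 4.3.3, limma 3.58.1, DESeq2 1.42.0, Python 3.11.15 and matplotlib 3.10.9 were used. SE is the absolute log2 fold change divided by the root of the F statistic, and 95% intervals are 1.96 SE wide on each side. Group patterns used log2 CPM with a prior count of 2. The fit was tested on simulated data.

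The 10 genes and the lists were chosen with earlier results of these data known. By the rule for naming, all 10 count in every comparison, and those not called are in places given only in the counts or as a range. Of each pathway list, up to 4 called genes with the largest absolute log2 fold change are named, with Rela always, and of the pattern comparison the 3 nearest genes. Alternatives were RLE scaling, DESeq2, no filter, only the compared groups, unstranded counts, a replicate block, leaving out each library, and leaving out the 5 or the 3 libraries that stand apart.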

Additional observations from a re-analysis of the deposited data

Results flagged for a closer look

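The test of the genotype difference singled out 9 results, given as GR Zn/Zn minus wild type on the log2 scale (edgeR quasi-likelihood test with Benjamini-Hochberg adjustment). For the LPS effect they were Tnfaip3 at 1.10, Tnip1 at 0.66, Nfkb2 at 0.55 and Nfkb1 at 0.31. For the Dex effect without LPS they were Nfkbia at -0.65 and Nfkbiz at 0.45. For the Dex effect under LPS they were Nfkbiz at 0.56, Tnfaip3 at 0.53 and Nfkb1 at 0.42. Those of Nfkb1 and Tnip1 with LPS and of Nfkbiz with Dex alone lost their call in some refits without 1 library, as given above.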

How the results depend on the processing

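Of the 120 results for single genes (10 genes in 12 comparisons), all kept direction and call with RLE scaling, with unstranded counts and with a replicate block. DESeq2 added 1 call, leaving out the filter on low counts lost 2, and fitting only the compared groups added 5 and lost 3. Leaving out the 3 deeper libraries added 3 and lost 3, and leaving out the 5 that stand apart added 17 and lost none. No called value reversed. The fit without the 5 keeps only replicate 2 of wild type with Dex and LPS. It also leaves out libraries named because they deviated from their groups, so its added calls do not show stability. The cause of these changes was not tested.

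Counts of the 10 genes called moved as follows. Without the 5 libraries there were 6 for Dex in wild type (3 in the report), 4 for its genotype difference (2), 1 for Dex under LPS in GR Zn/Zn (0), 6 for its genotype difference (3) and 5 for genotype in vehicle (2). Without the 3 deeper libraries the genotype difference of Dex had 1. With only the compared groups, Dex in wild type had 6 and Dex under LPS in wild type 3 (6 in the report). Without single libraries, counts ran from 2 to 4 for the genotype difference of LPS, 1 to 2 for that of Dex, and 3 to 5 for that of Dex under LPS.

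Counts over all genes moved by more than 1.5 times as well. Without the 5 libraries they were 6676 for LPS in wild type (4020 in the report), 405 for its genotype difference (82), 4330 for Dex in wild type (2003), 2191 for its genotype difference (1064), 160 for Dex under LPS in GR Zn/Zn (1), 2970 for its genotype difference (1581), 781 for the interaction (238) and 4620 for genotype in vehicle (2861). Without the 3 deeper libraries they were 387 for the interaction and 5052 for Dex under LPS in wild type (3198). With only the compared groups they were 4659 for Dex and 6847 for LPS in wild type, 1544 for Dex under LPS in wild type, and 146, 1659 and 1042 for the genotype differences of LPS, Dex and Dex under LPS. DESeq2 called 140 for the genotype difference of LPS and 28 for Dex under LPS in GR Zn/Zn, and single left-out libraries gave 34 to 79 and 0 to 27. The latter count was 6 with no filter and 12 with the replicate block. Dex in GR Zn/Zn (0 in the report) had 5 without the 5 libraries, 1 without the 3 deeper ones and 3 by DESeq2.

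The labels give every group replicates 1 to 3. In no comparison did the deviations of same-numbered libraries correlate above 0.1 in all 3 pairs (correlations from -0.34 to 0.35), so the numbers were not taken as pairing. All 3 were positive for Dex in GR Zn/Zn (0.06 to 0.30), Dex under LPS in GR Zn/Zn (0.02 to 0.12) and genotype with LPS (0.09 to 0.28). With the replicate block the counts of the 10 genes called were 10 and 10 for LPS, 4 for its genotype difference, 3, 0 and 2 for Dex, 6, 0 and 3 for Dex under LPS, 2 for the interaction, and 2 and 8 for genotype, as without it. Depth limits Nfkbie without LPS most in reads, with as few as 65 in a library.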
